A study of Homo sapiens with 8 samples.

Results

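The BCL2 family was described here by 10 genes, of the 63677 genes in the count tables. They were the pro-survival genes MCL1, BCL2 and BCL2L1, the effector genes BAX and BAK1, and the BH3-only genes BCL2L11, BBC3, BID, PMAIP1 and BMF. The genes were chosen by symbol and each symbol matched a single gene identifier in the deposited tables. All 10 passed the filter on low counts in every comparison. By their labels, the libraries came from the human multiple myeloma (MM) lines JJN3 and H929. By the same labels, the cells had been kept for 24 h in 50 nM THZ1, a covalent inhibitor of the kinase CDK7, or in its vehicle DMSO. Their RNA was then sequenced, with 2 libraries for each labelled line and treatment and 8 in all. The labels name no engineered allele in either line, and all libraries shared the same culture medium with serum and antibiotics. Each line derives from 1 patient, and the labels do not say whether the libraries of a group came from separate cultures, so the p-values measure the spread between libraries, which may be technical.

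Proteins of the BCL2 family decide whether the outer mitochondrial membrane is opened during apoptosis. BAX and BAK1 form the pores, the pro-survival proteins hold BAX and BAK1 in check, and the BH3-only proteins bind the pro-survival proteins through a short helix, the BH3 domain, or activate BAX and BAK1 directly. MM cells are known for their dependence on MCL1, a protein with a short half-life whose level follows its transcript and its degradation. CDK7 phosphorylates RNA polymerase II, and transcripts that turn over quickly are often the first to be lost when it is inhibited.

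The BH3 core is what these genes share beyond the choice of their symbols, and its codons are printed to show how BH3-only genes resemble the genes they act on. A search for a leucine, any 3 residues, a glycine or alanine and an aspartate found exactly 1 match in the canonical coding transcript of each of the 10 genes. The same pattern was present in 4856 of 19553 canonical coding transcripts (24.835%), so a match alone does not define a BH3 domain. The 30 bases around each match are given 5′ to 3′ on the coding strand, from the GENCODE v44lift37 transcripts on GRCh37 (hg19), with the leucine, the glycine or alanine and the aspartate codons in capitals.
MCL1: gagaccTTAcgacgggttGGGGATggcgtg
BCL2: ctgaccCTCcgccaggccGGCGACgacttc
BCL2L1: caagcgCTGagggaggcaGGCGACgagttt
BAX: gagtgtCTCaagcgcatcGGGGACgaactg
BAK1: cggcagCTCgccatcatcGGGGACgacatc
BCL2L11: caagagTTGcggcgtattGGAGACgagttt
BBC3: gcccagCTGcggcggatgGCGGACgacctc
BID: aggcacCTCgcccaggtcGGGGACagcatg
PMAIP1: actcaaCTCaggagatttGGAGACaaactg
BMF: cgaaagCTTcagtgcattGCAGACcagttc
The fifth residue of the core was glycine in 8 genes and alanine in BBC3 and BMF. No stretch was split by an intron. The stretches lay in coding exons, for example at chr1:150551347-150551376 on the minus strand for MCL1, chr18:60985588-60985617 on the minus strand for BCL2, chr2:111907674-111907703 on the plus strand for BCL2L11, and chr18:57569899-57569928 on the plus strand for PMAIP1. In MCL1 the core spanned residues 213 to 218 of a protein of 350 residues, and in PMAIP1, which encodes NOXA and is the shortest of the family, residues 29 to 34 of 54. Not every transcript carried it. The core was absent from 2 of 6 annotated coding transcripts of BCL2L11, 2 of 5 of BCL2, 3 of 6 of BAX, 4 of 7 of BID, 5 of 9 of BMF and 1 of 2 of PMAIP1, and present in every coding transcript of MCL1, BCL2L1, BAK1 and BBC3. The counts were made per gene and do not separate the long and short forms that these loci are known to produce by splicing.

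The genes stood at MCL1 (ENSG00000143384, chr1:150533371-150552214), BCL2 (ENSG00000171791, chr18:60790579-60987361), BCL2L1 (ENSG00000171552, chr20:30252255-30311792), BAX (ENSG00000087088, chr19:49458072-49465055), BAK1 (ENSG00000030110, chr6:33540324-33548070), BCL2L11 (ENSG00000153094, chr2:111876955-111926021), BBC3 (ENSG00000105327, chr19:47724079-47736023), BID (ENSG00000015475, chr22:18216904-18257536), PMAIP1 (ENSG00000141682, chr18:57567228-57571537) and BMF (ENSG00000104081, chr15:40380091-40401093), all on GRCh37. BAX, BCL2L11 and PMAIP1 were on the plus strand and the others on the minus strand. Exon bases shared with another annotated gene made up 5.27% of the exon bases of MCL1, 10.8% of BCL2L11, 8.46% of BMF, 4.11% of BAK1 and 2.51% of BBC3, and none of the other 5 genes. The genes sharing these bases lay on the opposite strand, except that MCL1 also shared bases with ADAMTSL4-AS1 on its own strand. The strand setting of the counting was not given in the sources used here, so a small part of those counts could belong to the overlapping gene.

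The total count was between 17476443 and 19194371 per library. In JJN3 the 4 libraries resembled each other. FGFR3 had 0 to 2 counts, MAF, the oncogene translocated in JJN3, had 8873 to 16840, and lambda genes took 0.244% to 0.369% of all light chain V gene counts. Under the H929 labels, the DMSO and THZ1 libraries did not look like the same cells. FGFR3, which the translocation of H929 switches on, was at 45 and 285 counts under the H929 DMSO label and at 14117 and 13411 under the H929 THZ1 label, MAF was at 18006 and 16310 counts under the former and 2729 and 2942 under the latter, so its level does not single out JJN3, and the lambda share was 99.99% and 98.0% in the former and 0.203% and 0.194% in the latter. A light chain is fixed by rearrangement and is not switched by a drug within a day, so for the libraries labelled H929 the treatment and the source of the cells cannot be told apart. Results for them are given below as differences between labels. The defining markers of plasma cells (SDC1, CD38, TNFRSF17, IRF4, PRDM1 and XBP1) were all detected in all 8 libraries, with summed levels of 1883 to 1904 CPM (counts relative to library size) in JJN3 with DMSO, 1369 to 1395 with THZ1, 1426 to 1528 under the H929 DMSO label and 6177 to 6286 under the H929 THZ1 label. Their part in the results was not tested. The summed levels of the 3 B cell, the 3 myeloid and the 3 fibroblast markers stayed at or under 4.62 CPM in every library. Those of the 3 T cell markers were 0.969 to 4.71 CPM except under the H929 THZ1 label (34.0 and 34.7 CPM). There CD3E had 640 and 650 counts, CD3D 0 and 0, and CD2 6 and 6.

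The first question was whether THZ1 lowered the transcripts of the BCL2 family in JJN3. The 10 genes moved in both directions. A gene was called higher or lower where its adjusted p lay under 0.05 with a change of more than 0.5 on the log2 scale. MCL1, BCL2L11, BBC3 and BMF were called higher, BAX and PMAIP1 lower, and BCL2, BCL2L1, BAK1 and BID neither. That is 4 of 10 genes higher and 2 of 10 lower, where 20.6% of the 13984 genes tested were called higher and 21.3% lower. The 2 THZ1 libraries did not overlap the 2 DMSO libraries for any of the 10 genes, as was the case for 79.9% of all genes tested. The median log2 fold change was 0.14 over the 10 genes and 0.00 over all genes tested. Levels below are CPM scaled by TMM over the 8 libraries, fold changes are THZ1 over DMSO from the quasi-likelihood test of edgeR, p-values were adjusted by Benjamini-Hochberg over all genes tested, and the error of a fold change is its standard error (SE). In bulk RNA, a lower share of cells with a transcript and less transcript per cell cannot be told apart, here and in the results that follow. No spike-in is given in the sources used here, so a rise or fall of a level is relative to the other RNA of its library.

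Of the pro-survival genes, MCL1 rose. It had 485.2 and 472.4 CPM with DMSO and 857.5 and 871.3 CPM with THZ1, from 9375, 9219, 14020 and 15668 counts. Both THZ1 libraries lay well above both DMSO libraries, and the replicates differed little. The log2 fold change of MCL1 was 0.87 ± 0.09 (SE, n = 2 and 2; edgeR adjusted p = 1.55e-05), or 1.82-fold. BCL2, the founding pro-survival gene and the target of venetoclax, had 115.6 and 98.2 CPM with DMSO and 137.4 and 152.5 CPM with THZ1. Its log2 fold change of 0.46 ± 0.10 (edgeR adjusted p = 0.00181) did not reach the fold threshold. It did without DMSO replicate 1 (0.56) or THZ1 replicate 1 (0.53), and over all libraries left out in turn it ranged from 0.33 to 0.56. BCL2L1, which encodes BCL-XL and the shorter, pro-apoptotic BCL-XS, had 61.6 and 58.8 CPM with DMSO and 51.9 and 53.7 CPM with THZ1. The difference, -0.17 ± 0.08 on the log2 scale, did not pass the test (edgeR adjusted p = 0.0916). Of the 3 pro-survival genes, MCL1 alone thus passed both thresholds in JJN3.

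The 2 effector genes differed from each other. BAX, which sits in the cytosol until it is activated, had 46.3 and 44.4 CPM with DMSO and 18.8 and 18.7 CPM with THZ1. It fell by 1.26 ± 0.10 on the log2 scale (edgeR adjusted p = 2.38e-06), which is 2.39-fold lower, and this was the largest decrease among the 10 genes in JJN3. BAK1, which resides in the outer mitochondrial membrane, had 31.6 and 32.0 CPM with DMSO and 25.4 and 28.2 CPM with THZ1. Its log2 fold change was -0.23 ± 0.10 and did not pass the test (edgeR adjusted p = 0.0717).

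The BH3-only genes moved in both directions. BCL2L11, which encodes BIM, a binder of all pro-survival proteins, had 99.3 and 92.2 CPM with DMSO and 267.0 and 253.8 CPM with THZ1. It rose 2.75-fold (log2 1.46 ± 0.08, edgeR adjusted p = 7.71e-07). BMF, a BH3-only protein that is held at the cytoskeleton until it is released, had 25.5 and 21.6 CPM with DMSO and 70.9 and 108.0 CPM with THZ1. Its increase was the largest of the 10 genes (log2 1.94 ± 0.17, 3.84-fold, edgeR adjusted p = 5.23e-06), and the 2 THZ1 libraries lay further apart than for any other member. BBC3, which encodes PUMA, rose from a low level, with 49 and 48 counts (2.54 and 2.46 CPM) with DMSO and 125 and 161 counts (7.65 and 8.95 CPM) with THZ1. That was 3.36-fold (log2 1.75 ± 0.20, edgeR adjusted p = 3.3e-05).

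PMAIP1, whose product NOXA binds MCL1 with preference, moved the other way from the 3 BH3-only genes above. It had 41.7 and 40.8 CPM with DMSO and 21.7 and 19.02 CPM with THZ1, and fell 2.01-fold (log2 -1.005 ± 0.10, edgeR adjusted p = 1.41e-05). BID, the link from death receptors to mitochondria after cleavage by caspase-8, had 44.2 and 46.4 CPM with DMSO and 36.0 and 34.8 CPM with THZ1. Its log2 fold change of -0.34 ± 0.09 had an edgeR adjusted p of 0.00641 but was under the fold threshold.

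**Figure D1:**
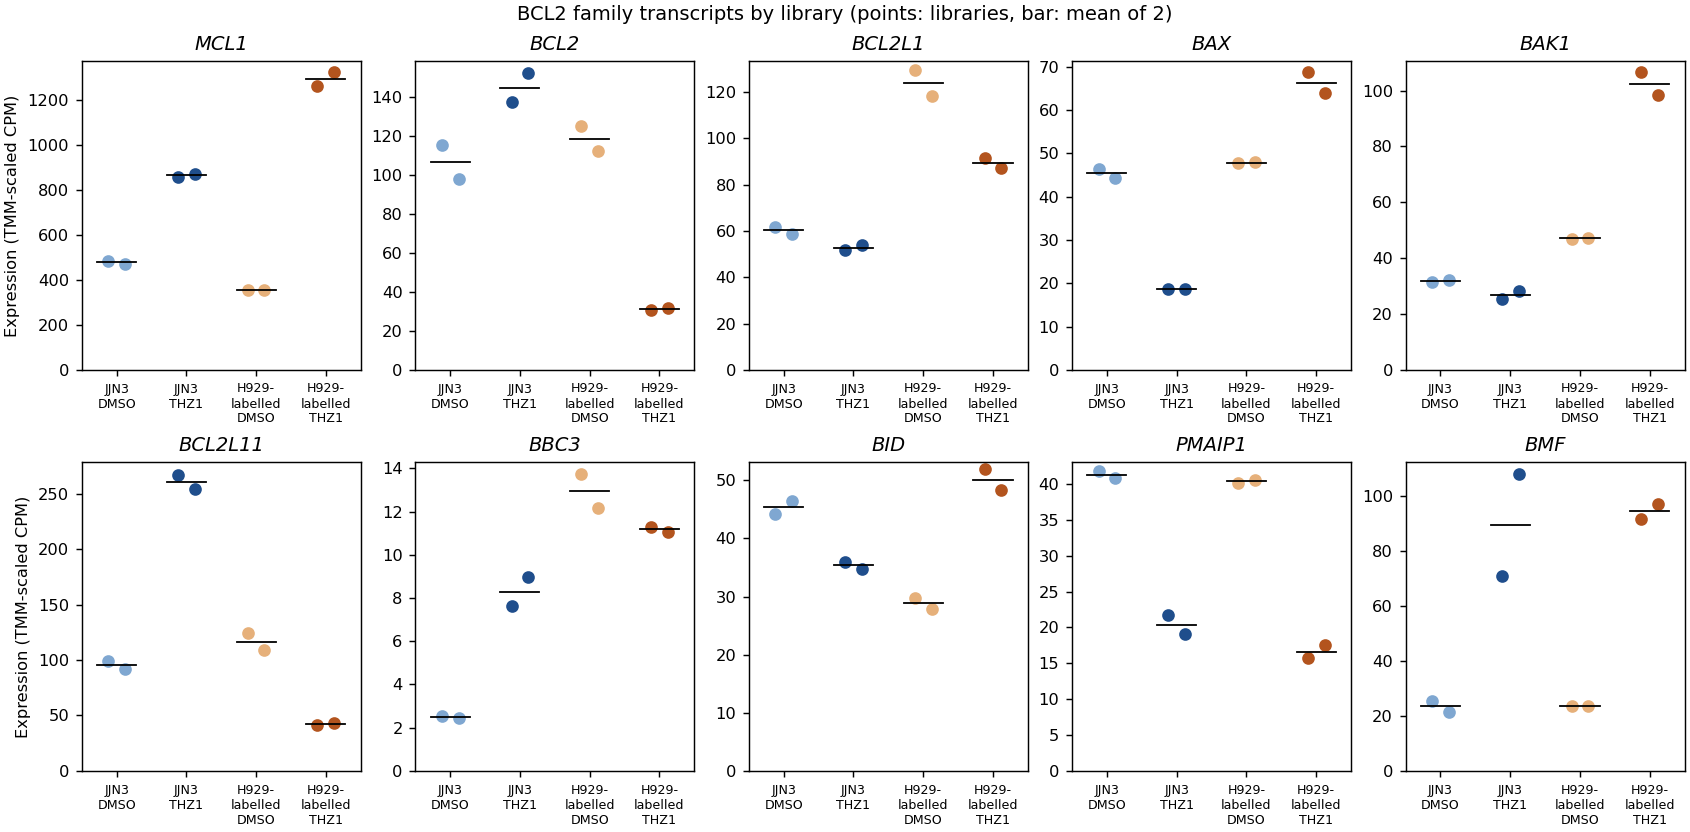
Expression of the 10 genes in TMM-scaled CPM (vertical axes start at 0) for the 4 groups, each point a library and each bar the mean of 2. The THZ1 points of MCL1 and BMF lie above, and those of PMAIP1 below, the DMSO points in JJN3 and under the H929 labels, while those of BCL2L11 lie above them in JJN3 and below them under the H929 labels.

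Between the libraries labelled H929, the same comparison called 4 of 10 genes higher (MCL1, BAK1, BID and BMF; 33.1% of 14863 genes tested) and 3 lower (BCL2, BCL2L11 and PMAIP1; 32.6%). Again the groups did not overlap for any of the 10 genes, against 91.0% of all genes tested. The median log2 fold change was 0.14 over the 10 genes and 0.01 over all genes. Since the labels hold libraries with different light chains, these are differences between the libraries labelled H929 THZ1 and H929 DMSO, in which the effect of THZ1 was not isolated.

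MCL1 had 355.4 and 354.5 CPM under the H929 DMSO label and 1260 and 1323 CPM under the H929 THZ1 label. It was 3.65-fold higher (log2 1.87 ± 0.06, edgeR adjusted p = 9.63e-14). BCL2 went the other way, with 125.1 and 112.4 CPM against 30.9 and 31.8 CPM, and was 3.78-fold lower (log2 -1.92 ± 0.07, edgeR adjusted p = 7.25e-13). BCL2L1 had 129.5 and 118.2 CPM against 91.6 and 87.2 CPM, a log2 difference of -0.47 ± 0.06 that was under the fold threshold despite an edgeR adjusted p of 3.28e-06. It passed that threshold without H929 DMSO replicate 2 (-0.51).

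Among the effectors, BAK1 had 47.0 and 47.4 CPM under the DMSO label and 106.5 and 98.3 CPM under the THZ1 label (log2 1.124 ± 0.06, 2.18-fold, edgeR adjusted p = 1.44e-10). BAX had 47.8 and 47.9 CPM against 68.8 and 63.9 CPM. Its log2 difference of 0.48 ± 0.07 (edgeR adjusted p = 7.95e-06) stayed just under the fold threshold, and passed it with DESeq2 (0.50), with scaling by total counts (0.53) and without H929 THZ1 replicate 2 (0.54). Both effectors thus stood higher under the THZ1 label, BAK1 alone past both thresholds.

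Of the BH3-only genes, BMF had 23.5 CPM in both libraries labelled DMSO and 91.6 and 97.2 CPM in those labelled THZ1 (log2 2.01 ± 0.07, 4.03-fold, edgeR adjusted p = 4.47e-13). BID had 29.7 and 27.9 CPM against 51.9 and 48.3 CPM (log2 0.80 ± 0.08, edgeR adjusted p = 9.31e-08). These were the BH3-only genes called higher. BCL2L11 had 124.7 and 108.6 CPM against 41.4 and 43.3 CPM and was 2.75-fold lower (log2 -1.46 ± 0.07, edgeR adjusted p = 2.74e-11). PMAIP1 had 40.1 and 40.6 CPM against 15.7 and 17.5 CPM and was 2.42-fold lower (log2 -1.28 ± 0.09, edgeR adjusted p = 1.52e-09). BBC3, with 255 and 219 counts against 215 and 209 counts, did not pass the test (log2 -0.21 ± 0.12, edgeR adjusted p = 0.128).

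**Figure D2:**
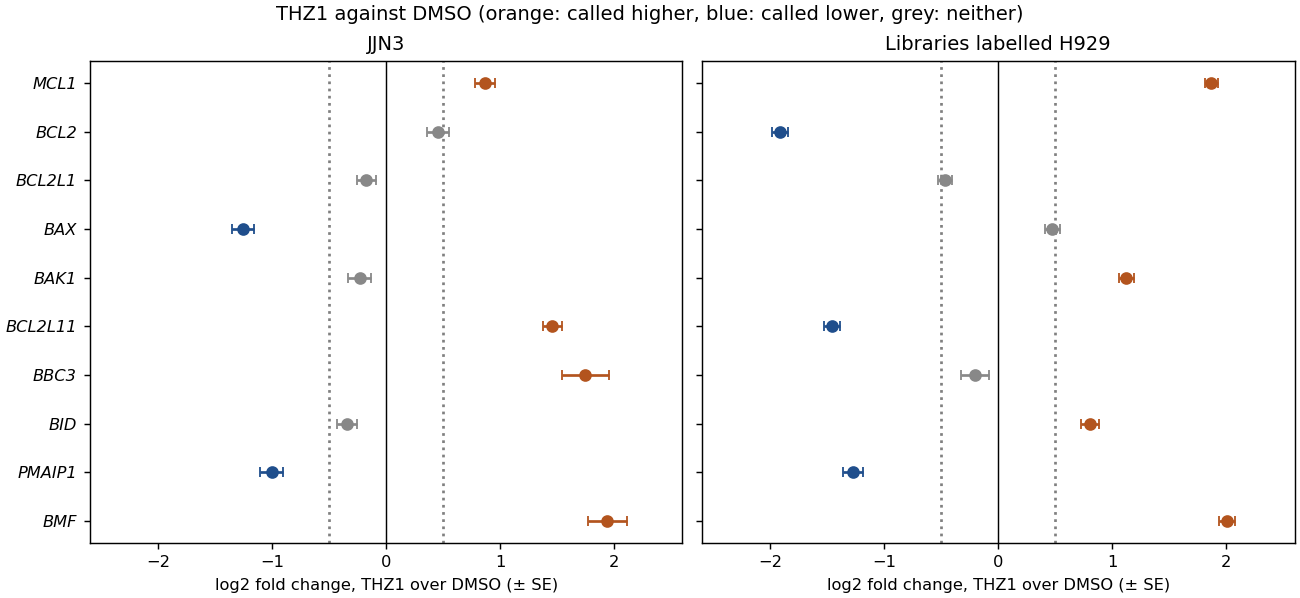
The log2 fold change of each gene, THZ1 over DMSO, with its SE as the bar, in JJN3 (left) and between the libraries labelled H929 (right), with dotted lines at the fold threshold of 0.5 in either direction. MCL1 (0.87 and 1.87) and BMF (1.94 and 2.01) lie right of the line in both panels, PMAIP1 (-1.005 and -1.28) left of it in both, and BCL2L11 on opposite sides (1.46 and -1.46).

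The JJN3 and the H929-labelled comparison share no library. Set side by side, MCL1 and BMF were called higher in both and PMAIP1 was called lower in both. BCL2L11 was higher in JJN3 but lower between the libraries labelled H929. BBC3 and BAX were called in JJN3 only, as higher and lower, and BAK1, BID and BCL2 under the H929 labels only, with BAK1 and BID higher and BCL2 lower. BCL2L1 was called in neither.

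An interaction fitted to the 8 libraries tested whether the responses differed, as the log2 difference under the H929 labels minus that in JJN3. It passed an adjusted p of 0.05 for 8 of the 10 genes, where 62.0% of 16122 genes tested did so. The difference in light chain between the libraries labelled H929 enters each of these values, and its part was not tested. BCL2L11 had the largest difference (-2.91 ± 0.11, edgeR adjusted p = 6.26e-12), followed by BCL2 (-2.36 ± 0.13, edgeR adjusted p = 2.13e-10). BBC3 was also lower in response under the H929 labels (-1.94 ± 0.22, edgeR adjusted p = 1.39e-06). For BAX (1.75 ± 0.11), BAK1 (1.36 ± 0.12), BID (1.16 ± 0.12) and MCL1 (1.01 ± 0.10), the value under the H929 labels was the higher, with edgeR adjusted p-values from 1.73e-09 to 2.78e-07. MCL1 was thus called higher in both comparisons, but by a larger factor under the H929 labels.

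The remaining interactions were smaller than these. BCL2L1 passed (-0.28 ± 0.11, edgeR adjusted p = 0.0288) but did not with DESeq2 (adjusted p = 0.0546), with scaling by total counts (edgeR adjusted p = 0.277), without the filter on low counts (edgeR adjusted p = 0.233) or without any of 6 of the 8 libraries (edgeR adjusted p = 0.0567 to 0.173). PMAIP1 (-0.26 ± 0.14, edgeR adjusted p = 0.106) and BMF (0.08 ± 0.21, edgeR adjusted p = 0.79) did not pass. Without JJN3 THZ1 replicate 2, the library with the higher BMF level, both did (PMAIP1 -0.34, edgeR adjusted p = 0.0428; BMF 0.43, edgeR adjusted p = 0.00612). The data therefore do not show that the responses of PMAIP1 and BMF were alike.

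The JJN3 libraries were also compared with those labelled H929 within a treatment. The libraries labelled H929 DMSO carry another light chain than those labelled H929 THZ1, and less FGFR3 (45 and 285 against 14117 and 13411 counts). These are thus differences from the libraries as labelled, and the source of the cells was not tested. With DMSO, 3 of 10 genes were lower in JJN3 than under the H929 label (30.8% of 16122 genes tested) and 1 was higher (30.7%). BBC3 was 0.19 of its level under the H929 label (log2 -2.37 ± 0.17, edgeR adjusted p = 2.1e-09). BCL2L1 was 0.49 of that level (log2 -1.04 ± 0.07, edgeR adjusted p = 2.13e-09) and BAK1 was 0.67 of it (log2 -0.57 ± 0.08, edgeR adjusted p = 1.11e-05). BID was the gene that stood higher (log2 0.65 ± 0.08, edgeR adjusted p = 2.46e-06). MCL1 (0.43 ± 0.07, edgeR adjusted p = 3.72e-05) and BCL2L11 (-0.29 ± 0.08, edgeR adjusted p = 0.00375) differed by less than the fold threshold. For BCL2 (-0.15 ± 0.09), BAX (-0.08 ± 0.08), PMAIP1 (0.03 ± 0.09) and BMF (0.00 ± 0.16), the difference did not pass the test (edgeR adjusted p = 0.124 to 0.997).

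With THZ1, 5 of 10 genes were lower in JJN3 than under the H929 label (31.6% of genes tested) and 2 were higher (32.3%). BCL2L11 was 6.15-fold higher (log2 2.62 ± 0.08, edgeR adjusted p = 1.44e-13) and BCL2 4.63-fold higher (log2 2.21 ± 0.09, edgeR adjusted p = 4.72e-12) in JJN3. The effectors BAK1 (-1.93 ± 0.08) and BAX (-1.82 ± 0.08), and by smaller log2 differences BCL2L1 (-0.76 ± 0.08), MCL1 (-0.58 ± 0.07) and BID (-0.50 ± 0.08), were lower in JJN3, with edgeR adjusted p-values from 4.28e-12 to 3.43e-05. BID lay at the fold threshold and was not called without JJN3 THZ1 replicate 2 (-0.49) or H929 THZ1 replicate 1 (-0.47). BBC3 (-0.43 ± 0.14), PMAIP1 (0.29 ± 0.10) and BMF (-0.07 ± 0.13) were not called. BBC3 was called lower with scaling by total counts (-0.54) or without JJN3 THZ1 replicate 2 (-0.55).

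To compare levels between genes, CPM were divided by the length of the gene's exons in kilobases. In JJN3 with DMSO the level per length was highest for MCL1 (76.9 ± 1.46 CPM per kb, SD, n = 2), then PMAIP1 (18.9 ± 0.301), BAX (17.5 ± 0.519), BAK1 (14.4 ± 0.128), BCL2L1 (14.3 ± 0.467), BCL2L11 (14.2 ± 0.750), BID (10.3 ± 0.347), BCL2 (8.48 ± 0.973), BMF (4.33 ± 0.506) and BBC3 (0.784 ± 0.0170). BAK1, BCL2L1 and BCL2L11 did not differ beyond their spread. With THZ1 the order below MCL1 (139 ± 1.57 CPM per kb) was BCL2L11 (38.6 ± 1.39), BMF (16.4 ± 4.81), BCL2L1 (12.6 ± 0.303), BAK1 (12.1 ± 0.917), BCL2 (11.5 ± 0.847), PMAIP1 (9.32 ± 0.871), BID (8.0 ± 0.193), BAX (7.25 ± 0.00961) and BBC3 (2.61 ± 0.290). The step from BMF to BCL2L1 was smaller than the SD of BMF, and BCL2L1, BAK1 and BCL2 did not differ beyond their spread. PMAIP1 thus went from the second to the seventh place in JJN3 and BAX from the third to the ninth.

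Under the H929 DMSO label MCL1 was also highest (57.1 ± 0.0962 CPM per kb), followed by BCL2L1 (29.5 ± 1.92), BAK1 (21.3 ± 0.130), BAX (18.5 ± 0.0421), PMAIP1 (18.5 ± 0.137), BCL2L11 (17.3 ± 1.70), BCL2 (9.42 ± 0.713), BID (6.52 ± 0.284), BMF (4.32 ± 0.00494) and BBC3 (4.06 ± 0.352). BAX, PMAIP1 and BCL2L11 did not differ beyond their spread, nor did BMF and BBC3. Under the H929 THZ1 label the order was MCL1 (208 ± 7.09 CPM per kb), BAK1 (46.3 ± 2.63), BAX (25.6 ± 1.35), BCL2L1 (21.3 ± 0.751), BMF (17.3 ± 0.738), BID (11.3 ± 0.584), PMAIP1 (7.59 ± 0.572), BCL2L11 (6.28 ± 0.193), BBC3 (3.51 ± 0.0579) and BCL2 (2.48 ± 0.0530). In all 4 groups, then, MCL1 had the highest level per length of the 10 genes.

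Shares within a library do not depend on how libraries are scaled. Of the summed level per length of the 3 pro-survival genes in JJN3, MCL1 made up 76.6% and 77.7% in the DMSO libraries and 85.5% and 84.9% in the THZ1 libraries. The share of BCL2L1 was 14.4% and 14.3% with DMSO and 7.68% and 7.76% with THZ1, and the mean share of BCL2 was 8.48% and 7.05%. So the pool of pro-survival transcripts in JJN3 leaned further to MCL1 with THZ1. Per length, the share of BCL2L1 fell more than that of BCL2, while the difference in the level of BCL2L1 itself did not pass the test. MCL1 held 58.3% and 60.6% of the pro-survival pool under the H929 DMSO label and 89.3% and 90.1% under the H929 THZ1 label. With counts in place of counts per length, the mean share of MCL1 was 74.2% and 81.4% in JJN3 and 59.4% and 91.4% under the H929 labels.

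The makeup of the BH3-only pool also changed, but the order of its genes depends on dividing by length. Per length, in JJN3 with DMSO, PMAIP1 was its largest part (38.7% and 39.2%), followed by BCL2L11 (mean 29.3%), BID (21.2%), BMF (8.92%) and BBC3 (1.62%). With THZ1 BCL2L11 was its largest part (54.2% and 49.0%), followed by BMF (17.8% and 25.8%), PMAIP1 (mean 12.5%), BID (10.7%) and BBC3 (3.47%). Under the H929 DMSO label PMAIP1 (35.2% and 37.8%) and BCL2L11 (35.4% and 32.8%) overlapped per length. Under the H929 THZ1 label BMF was the largest part (36.99% and 38.3%), with BCL2L11 at a mean of 13.6%. With counts in place of counts per length, BCL2L11 led already with DMSO, at a mean of 45.9% in JJN3 and 52.4% under the H929 label, against 19.8% and 18.2% for PMAIP1. On that scale the mean share of BCL2L11 was 63.0% in JJN3 with THZ1 and 19.7% under the H929 THZ1 label. In JJN3 the share of PMAIP1 was lower with THZ1 than with DMSO on both scales. It was 13.6% and 11.3% against 38.7% and 39.2% per length, and 5.38% and 4.48% against 19.55% and 20.05% by counts. Under the H929 labels it was 15.8% and 17.1% (THZ1) against 35.2% and 37.8% (DMSO) per length. By counts it was 7.42% and 8.05% against 17.3% and 19.1%. For these libraries the treatment and the source of the cells cannot be told apart.

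**Figure D3:**
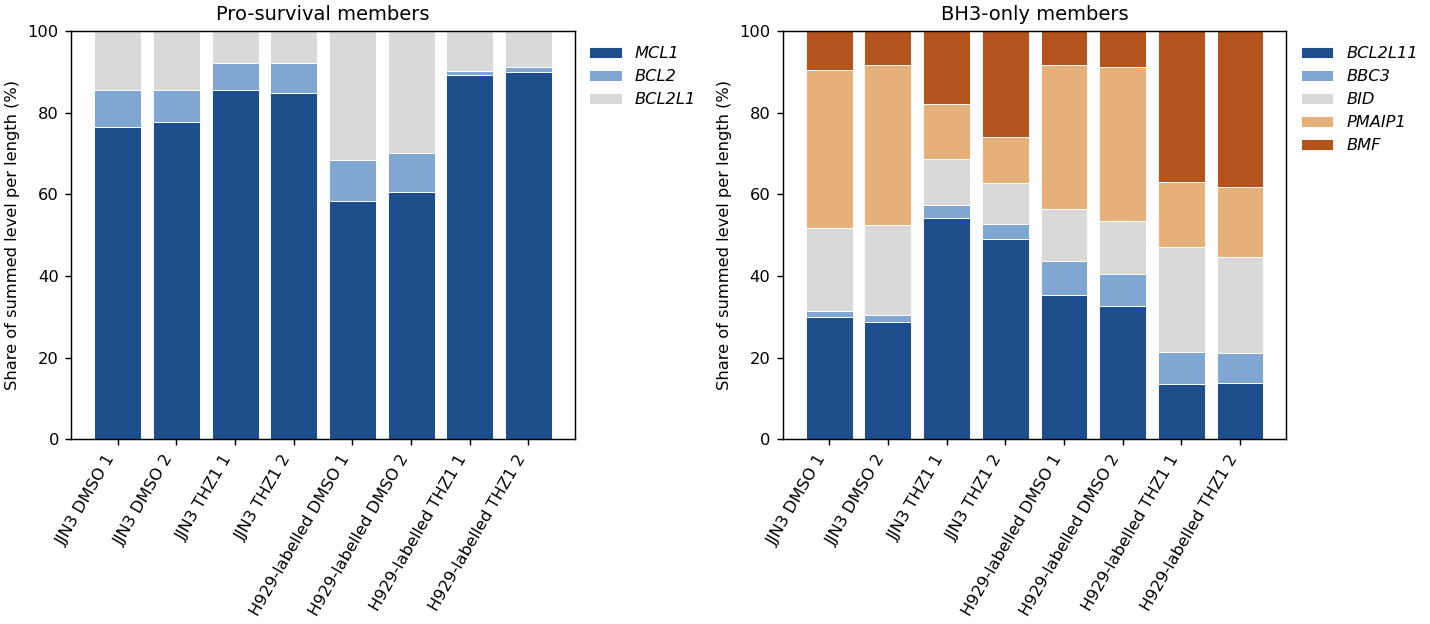
Share of each gene in the summed level per length (CPM per kb, in %) of the 3 pro-survival genes (left) and the 5 BH3-only genes (right), 1 bar per library; by counts alone the order of the BH3-only genes differs. MCL1 takes 76.6% and 77.7% of the left bars in JJN3 with DMSO and 85.5% and 84.9% with THZ1. PMAIP1 takes 38.7% and 39.2% of the right bars in JJN3 with DMSO and a mean of 12.5% with THZ1. It takes 35.2% and 37.8% under the H929 DMSO label and a mean of 16.5% under the H929 THZ1 label.

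Ratios between binding partners, as transcripts per length in the same library, are given next as descriptions. PMAIP1 over MCL1 was 0.245 and 0.246 in JJN3 with DMSO and 0.0721 and 0.0621 with THZ1, a 3.66-fold decrease of the mean. BCL2L11 over MCL1 was 0.189 and 0.180 with DMSO and 0.287 and 0.269 with THZ1, 1.51-fold higher. The NOXA and BIM transcripts thus moved apart in relation to that of MCL1. BCL2L11 over BCL2 went from 1.61 and 1.76 to 3.63 and 3.11, and BMF over BCL2 from 0.511 and 0.510 to 1.20 and 1.64. BAX over BCL2, a ratio often used as an index of apoptotic readiness, went from 1.95 and 2.21 to 0.666 and 0.599. For BAX over BCL2 the change in JJN3 was toward BCL2, and for the BH3-only genes BCL2L11 and BMF it was away from BCL2.

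In the libraries labelled H929, PMAIP1 over MCL1 was 0.322 and 0.326 under the DMSO label. It was 0.0355 and 0.0376 under the THZ1 label, 8.86-fold lower. BCL2L11 over MCL1 was 0.324 and 0.283 with DMSO and 0.0303 and 0.0302 with THZ1, so this ratio went down where it went up in JJN3. BAX over BCL2 went from 1.86 and 2.08 to 10.9 and 9.79, also opposite to JJN3. BAK1 over MCL1 went from 0.183 and 0.191 to 0.0833 and 0.0912 in JJN3. It was 0.372 and 0.376 under the H929 DMSO label and 0.238 and 0.209 under the H929 THZ1 label. The sign of the label difference matched JJN3 for PMAIP1 and BAK1 over MCL1 and for BCL2L11 and BMF over BCL2. It was opposite for BCL2L11 over MCL1 and BAX over BCL2. Because the H929 labels also differ in light chain, these signs do not show whether the THZ1 responses were alike, which was not tested.

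**Figure D4:**
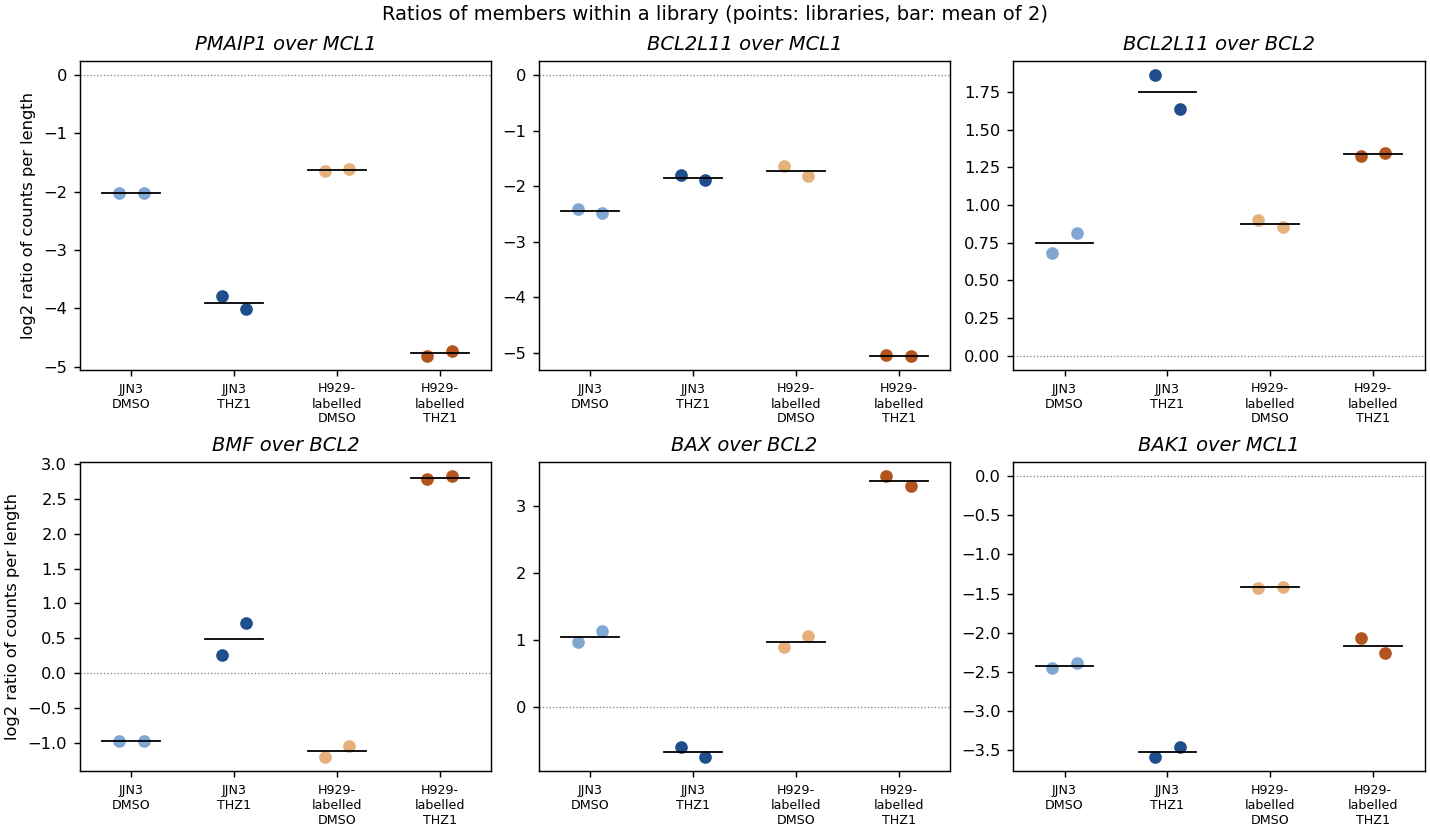
Ratio of the counts per length of a pair of genes within each library, as log2 (0 means equal levels per length), with each point a library and each bar the mean of 2. PMAIP1 over MCL1 averages -2.03 and -3.90 in JJN3 with DMSO and THZ1, and -1.63 and -4.77 under the H929 DMSO and THZ1 labels. BAX over BCL2 moves down in JJN3 (1.05 to -0.66) and is higher under the H929 THZ1 than the H929 DMSO label (3.37 against 0.98).

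Further genes of the pathway were taken from 4 lists. Of the 13 other BCL2 family genes, 10 were tested in JJN3, 3 were called lower and 2 higher (21.3% and 20.6% of all genes tested), with a median log2 fold change of -0.55 against 0.00 for all genes. The lower ones were BCL2L13, a mitophagy receptor of the family (log2 -1.09 ± 0.09, edgeR adjusted p = 3.44e-06), the pro-survival gene BCL2L2 (-1.117 ± 0.20, edgeR adjusted p = 0.000711; 23.3% of its exon bases lie in other genes) and the BH3-only gene BAD (-0.71 ± 0.16, edgeR adjusted p = 0.00321; 23.7%). BNIP3L, a mitophagy receptor, rose (0.64 ± 0.08, edgeR adjusted p = 3.85e-05), as did the BH3-only gene HRK, from 3 and 3 counts to 10 and 11. In the libraries labelled H929, 9 were tested, 2 lower and 2 higher (32.6% and 33.1% of all genes), with a median of 0.07. BIK, a BH3-only gene (-2.15 ± 0.19, edgeR adjusted p = 2.97e-08), and BAD (-0.72 ± 0.11, edgeR adjusted p = 1.15e-05) were lower under the THZ1 label. BNIP3 (1.03 ± 0.09, edgeR adjusted p = 3.44e-08) and the pro-survival gene BCL2A1, with 3 and 2 counts against 15 and 20, were higher.

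Downstream of BAX and BAK1, all 13 genes were tested. In JJN3, 3 were lower and 1 higher (21.3% and 20.6% of all genes), with a median log2 fold change of -0.23. Among those lower were CYCS, the gene of cytochrome c (-0.82 ± 0.10, edgeR adjusted p = 3.69e-05), and HTRA2, a mitochondrial protease released with it (-1.25 ± 0.17, edgeR adjusted p = 8.93e-05; 32.3% of its exon bases lie in other genes). The gene called higher was CASP9, the initiator caspase (0.52 ± 0.15, edgeR adjusted p = 0.0115). Between the H929 labels 3 were lower and 4 higher (32.6% and 33.1% of all genes), with a median of 0.04. CYCS was again lower (-0.67 ± 0.05, edgeR adjusted p = 4.63e-09), as was VDAC1, a channel of the outer membrane (-0.89 ± 0.05, edgeR adjusted p = 1.55e-10). The largest increase was that of XIAP, the caspase inhibitor (1.39 ± 0.06, edgeR adjusted p = 2.88e-12).

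The level of the MCL1 protein is also set by its ubiquitination. Of 8 genes of MCL1 turnover, 7 were tested in JJN3, of which 4 were called higher (20.6% of all genes) and 3 neither, with a median log2 fold change of 0.53. Called higher were the deubiquitinase USP9X, which stabilises MCL1 (0.91 ± 0.09, edgeR adjusted p = 7.98e-06), the deubiquitinase USP13 (0.52 ± 0.08, edgeR adjusted p = 0.000314), the kinase GSK3B, which marks MCL1 for degradation (0.78 ± 0.08, edgeR adjusted p = 1.44e-05), and the ubiquitin ligase MARCH5 (0.62 ± 0.09, edgeR adjusted p = 0.000109). The 4 genes thus include both genes that stabilise MCL1 and genes that promote its loss. Under the H929 labels 3 were lower and 2 higher (32.6% and 33.1% of all genes), with a median of 0.14. HUWE1, the ligase also called MULE, was lower (-1.61 ± 0.06, edgeR adjusted p = 6.81e-13), as was USP13 (-0.83 ± 0.06, edgeR adjusted p = 1.72e-09). FBXW7, a substrate receptor of a ligase complex (1.25 ± 0.10, edgeR adjusted p = 8.79e-09), and MARCH5 (1.06 ± 0.07, edgeR adjusted p = 1.45e-09) were higher. Protein was not measured here.

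The last list held 12 transcription factors known to act on BCL2 family genes, of which 11 were tested in each comparison. In JJN3, 4 were lower and 4 higher (21.3% and 20.6% of all genes), with a median log2 fold change of 0.30. The largest decreases among the called genes were those of E2F1 (-1.25 ± 0.09, edgeR adjusted p = 2.16e-06), the stress factor ATF4 (-0.92 ± 0.11, edgeR adjusted p = 3.09e-05) and MYC (-0.80 ± 0.10, edgeR adjusted p = 5.13e-05). HIF1A (0.90 ± 0.08, edgeR adjusted p = 4.56e-06), STAT3, an activator of MCL1 transcription downstream of interleukin 6 (0.80 ± 0.08, edgeR adjusted p = 1.27e-05), and ATF3 (0.66 ± 0.24, edgeR adjusted p = 0.0324) had the largest increases among the genes called. Between the H929 labels 2 were lower and 3 higher (32.6% and 33.1% of all genes), with a median of 0.09. MYC (-4.12 ± 0.07, edgeR adjusted p = 5.31e-17) and JUN (-3.61 ± 0.11, edgeR adjusted p = 5.07e-14) were lower, and E2F1 (1.22 ± 0.07, edgeR adjusted p = 2.39e-10) was higher under the THZ1 label.

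**Figure D5:**
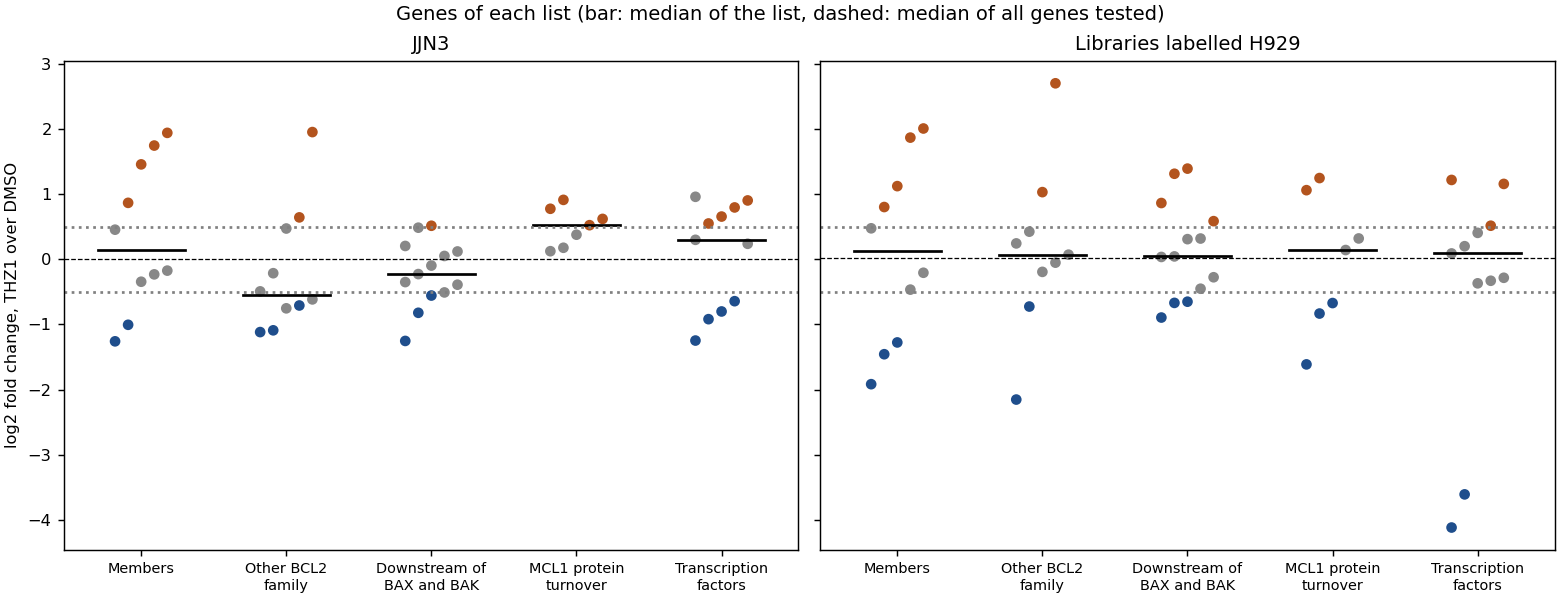
The log2 fold change, THZ1 over DMSO, of the tested genes of 5 lists in JJN3 (left) and between the libraries labelled H929 (right), orange where called higher, blue where called lower and grey otherwise, with the median of each list as a bar. The 10 members have medians near 0 in both panels with genes far on either side, and the genes of MCL1 turnover in JJN3 have a median of 0.53 and lie between 0.12 and 0.91.

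The pattern of MCL1 was last set against that of the other genes. Over the 8 libraries, the genes whose log2 CPM followed MCL1 most closely, of 8957 compared, were PHIP (Pearson r = 0.999), UBE2H (0.998), OAT (0.997), CDK5RAP2 (0.996) and PTPRG (0.995). UBE2H, which encodes a ubiquitin-conjugating enzyme, had 137.8 and 132.0 CPM in JJN3 with DMSO, 264.0 and 282.6 with THZ1, 102.3 and 96.9 under the H929 DMSO label and 407.2 and 393.8 under the H929 THZ1 label. These correlations are a description of 4 pairs of replicate libraries that share their line and treatment, and with 8 points many genes can come close to any one gene.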

How the data were processed

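The authors aligned single-end reads to hg19 with STAR 2.5.2a, kept uniquely mapping reads, and deposited raw counts per Ensembl gene from featureCounts. They also deposited a table of their own DESeq2 1.12.4 comparison per line (means, fold changes, test statistics and p-values); only its gene symbols were used. Each total count, 17476443 to 19194371, sets the counting precision. Counts were tested with edgeR 4.0.16 in R 4.3.3 (TMM, filterByExpr, quasi-likelihood test, Benjamini-Hochberg adjustment over all genes tested). The fits were within JJN3, within the libraries labelled H929, and over all 8 libraries for the interaction and for JJN3 against the H929 labels. Genes were called at an adjusted p under 0.05 and a log2 fold change beyond 0.5, interactions at the adjusted p alone. The scripts were tested on simulated data. No spike-in is given in the sources used here, so levels are relative to the RNA of each library. Lengths and codons came from GENCODE v44lift37 (GRCh37), whose release may differ from the one counted. Members and lists were chosen with earlier results of these data known. From each further list, the genes named are those past the thresholds with the largest change, up to 3 per direction in JJN3 and 2 under the H929 labels; USP13 in JJN3 and the genes of single counts were named after their values were seen. Some genes that this rule selects are not reported here. DESeq2 1.42.0, other scalings, filters, thresholds, a replicate block and leaving out each library were tried as alternatives.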

Additional observations from a re-analysis of the deposited data

Results flagged for a closer look

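The difference between the log2 response under the H929 labels and that in JJN3 was what marked genes for a closer look. It passed an edgeR interaction test at an adjusted p of 0.05 for 8 of the 10 genes. The same was true of 62.0% of the 16122 genes tested. The differences were -2.905 for BCL2L11, -2.363 for BCL2, -1.944 for BBC3, 1.745 for BAX, 1.364 for BAK1, 1.157 for BID, 1.011 for MCL1 and -0.282 for BCL2L1. The libraries labelled H929 DMSO and H929 THZ1 differ in light chain (lambda shares of 99.99% and 98.0% against 0.203% and 0.194%) and in FGFR3, so each difference holds the source of the cells as well as the treatment, and they cannot be told apart. No group held 4 or more libraries, so no single library could be tested as an outlier.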

How the results depend on the processing

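Within JJN3, the calls of the members were the same under every other scaling, filter, tool and model, and leaving out 1 library made BCL2 pass the fold threshold in 2 of 4 cases. With 1 replicate left out at a time, which leaves a lone library that is assumed to vary like the others, the members called lower in JJN3 were 2 in every case and those called higher 4 to 5. Under the H929 labels they were 3 to 4 lower and 4 to 5 higher. The interaction passed for 7 to 9 members. JJN3 against the H929 label gave 3 lower and 1 higher with DMSO, and 4 to 5 lower and 2 higher with THZ1. The replicate numbers did not pair the libraries (correlation of the deviations of same-numbered libraries 0.00961 in JJN3 and -0.0115 under the H929 labels). With the replicate number as a block, 2 members were lower and 4 higher in JJN3, and no call of a member changed in any comparison. A fold threshold of 1 in place of 0.5 left 0 members higher (edgeR) in JJN3 than under the H929 label with DMSO and 2 lower with THZ1, and the adjusted p alone gave 2 higher with DMSO; at a threshold of 1, MCL1 in JJN3 (0.87) and BID under the H929 labels (0.80) were no longer called, which left 3 members higher in each; the stricter and looser limits themselves make these counts. Some values near 0 changed sign, all for BMF. Its difference between JJN3 and the H929 label with DMSO (0.00187) was -0.00766 with DESeq2 size factors and -0.0075 with DESeq2. That difference was -0.02 without JJN3 THZ1 replicate 1, and -0.11 to 0.13 over all libraries left out in turn. The interaction of BMF ranged from -0.18 to 0.43, with -0.03 without JJN3 DMSO replicate 1. Its difference between JJN3 and the H929 label with THZ1 ranged from -0.42 to 0.16. The cause was not tested. Scaling by total counts moved the median of all genes in JJN3 by -0.103.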
